A study of Mus musculus with 44 samples.

Results

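The genes described here are the 8 that carry interferon gamma signalling to the chemokine receptor CXCR3: the cytokine gene Ifng, its receptor chain genes Ifngr1 and Ifngr2, the transcription factor gene Irf1, the chemokine genes Cxcl9, Cxcl10 and Cxcl11, and the chemokine receptor gene Cxcr3. They were listed by symbol and matched to Ensembl mouse gene IDs, and all 8 were found among the 29720 gene IDs of both deposited count tables. Their levels are given as CPM, a gene's counts scaled to a common library total after trimmed mean of M-values normalization, in 44 libraries of poly-A RNA from mouse intestine.

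The study compared 2 mouse models of inflammatory bowel disease, each with and without inflammation, after vehicle or ATI-450. This compound inhibits MK2, a kinase downstream of p38 that is known to raise the stability and translation of cytokine mRNAs with AU-rich elements. All mice were labelled C57BL/6. They received 3 mg/kg ATI-450 or vehicle (methylcellulose and Tween20 in PBS) and a second dose 16 hours later, and tissue was taken 90 min after that, although the series text speaks of 24 hours of treatment.

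In the T cell transfer model the recipients were Rag1 null mice, which form natural killer and innate lymphoid cells but no mature T or B cells of their own, so that the T cells of every library in this model were donor cells, in non-inflamed mice too. Inflamed mice had been given 400000 naive T cells and developed colitis 8 to 12 weeks later, and non-inflamed mice had been given 200000 bulk T cells. The groups thus differed in the kind and the number of injected cells as well as in inflammation. The libraries were 5 non-inflamed with vehicle, 6 non-inflamed with ATI-450, 6 inflamed with vehicle and 6 inflamed with ATI-450. No recipient age is given in the labels. In the second model, inflamed mice were Tnf ∆ARE/+, in which the germline loss of an AU-rich element from 1 Tnf allele raises TNF in every cell type that makes it, and non-inflamed mice were Tnf +/+ littermates. These mice were randomized to treatment at 16 weeks of age. There were 5 libraries each of Tnf +/+ with vehicle, Tnf +/+ with ATI-450 and Tnf ∆ARE/+ with vehicle, and 6 of Tnf ∆ARE/+ with ATI-450. Nothing in the labels says which libraries came from separate animals or litters, so p-values measure the spread between these libraries.

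Interferon gamma is made by activated T helper 1 cells, cytotoxic T cells, natural killer cells and innate lymphoid cells. It binds a receptor of IFNGR1 and IFNGR2 chains, the JAK kinases bound to it are activated, and early targets such as Irf1 are induced, whose product activates later genes. CXCL9, CXCL10 and CXCL11 are secreted by macrophages, dendritic cells, endothelium and epithelium in response, and they attract CXCR3-bearing T helper 1 and cytotoxic cells, which bring more interferon gamma. CXCL9 depends mostly on interferon gamma, whereas CXCL10 is also induced by type I interferon and TNF. C57BL/6 mice carry a frameshift in Cxcl11 and make no CXCL11 protein, so its transcript is a readout of the locus only, and the annotation classes it as a polymorphic pseudogene.

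The chemokine genes lie in a row on chromosome 5, minus strand, in GRCm38. Cxcl9 spans 5:92321347-92328079, Cxcl10 spans 5:92346638-92348889 and Cxcl11 spans 5:92359544-92365485, with gaps of 18558 and 10654 bases. The promoter windows of the neighbours Cxcl10 and Cxcl9 are shown because these were the members called higher in the inflamed Tnf ∆ARE/+ intestine, and because their matches to known motifs differ. Each window runs from 250 bases before to 50 bases after the RefSeq start (GRCm38.p6), at chr5:92348840-92349139 for Cxcl10 and chr5:92328030-92328329 for Cxcl9, both on the minus strand and printed 5′ to 3′ along the gene. Capitals mark a match to the interferon regulatory factor repeat (GAAA, 2 bases of any kind, GAAA) or to the NF-kappaB motif on either strand.

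Cxcl10: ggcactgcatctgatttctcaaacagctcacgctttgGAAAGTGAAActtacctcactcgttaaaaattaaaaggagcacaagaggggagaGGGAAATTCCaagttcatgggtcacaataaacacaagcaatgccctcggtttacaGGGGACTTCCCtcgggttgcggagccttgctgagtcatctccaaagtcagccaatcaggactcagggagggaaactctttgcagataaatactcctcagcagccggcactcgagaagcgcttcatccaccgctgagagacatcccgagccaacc

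Cxcl9: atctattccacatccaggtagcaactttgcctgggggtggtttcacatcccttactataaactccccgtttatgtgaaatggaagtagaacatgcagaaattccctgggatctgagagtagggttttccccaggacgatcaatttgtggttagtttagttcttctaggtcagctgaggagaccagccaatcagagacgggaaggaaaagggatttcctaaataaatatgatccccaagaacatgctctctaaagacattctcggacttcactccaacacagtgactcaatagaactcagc

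The Cxcl10 window held 1 interferon regulatory factor repeat, at -213 from the start, and NF-kappaB matches at -159 and, overlapping each other, at -104 and -103. The Cxcl9 window matched neither motif, which says only that these letters are not in this window. NF-kappaB matches were found in the Irf1 window at -13 and the Ifngr2 window at -75. Of 32851 promoter windows, 3.44% held the interferon regulatory factor repeat and 8.46% an NF-kappaB match, so neither motif is particular to these genes. The share of windows with both motifs or with several matches was not counted.

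Ifng mRNA carries AU-rich elements, the class of element through which MK2 acts on cytokine mRNAs, and the densest stretch is shown for that reason. Its 3′ untranslated region held 6 copies of ATTTA in 631 bases, or 9.51 per kb, against a median of 1.24 per kb over 21022 genes. Capitals mark ATTTA.

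Ifng: aacctATTTAttaatATTTAaaactATTTA

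Copies were sparser in the other members. Ifngr2 had 6 in 2618 bases, Cxcl9 had 3 in 2452, Cxcl10 had 3 in 996, Irf1 had 2 in 944 and Cxcl11 had 1 in 1218, while Ifngr1 and Cxcr3 had 0. At least 1 ATTTA was present in 65.2% of genes.

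Library totals ran from 5953607 to 22347011 counts in the transfer model and from 5800923 to 13113931 counts in the Tnf ∆ARE model. The labels give the tissue only as intestine. The colon-position gene Hoxb13 was at 102 to 613 CPM in 22 of the 23 transfer libraries and at most 0.926 CPM in the Tnf ∆ARE libraries, so the models also differ in gut region. Inflamed vehicle transfer replicate 3 stood apart, with Hoxb13 at 0.0767 CPM and a small intestinal marker sum of 38280 CPM against at most 1117 CPM in the other transfer libraries. Summed B and plasma cell markers were 0.142 to 3.76 CPM in transfer libraries and 369 to 4480 CPM in Tnf ∆ARE libraries. Tnf itself was 35.8 ± 15.2 CPM (SD, n = 5) in Tnf ∆ARE/+ and 1.10 ± 0.53 CPM (SD, n = 5) in Tnf +/+ vehicle libraries. Together with 5 transfer libraries that carried pancreatic transcripts above 400 CPM, replicate 3 was left out in an alternative given beside the results it moves.

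**Figure D1:**
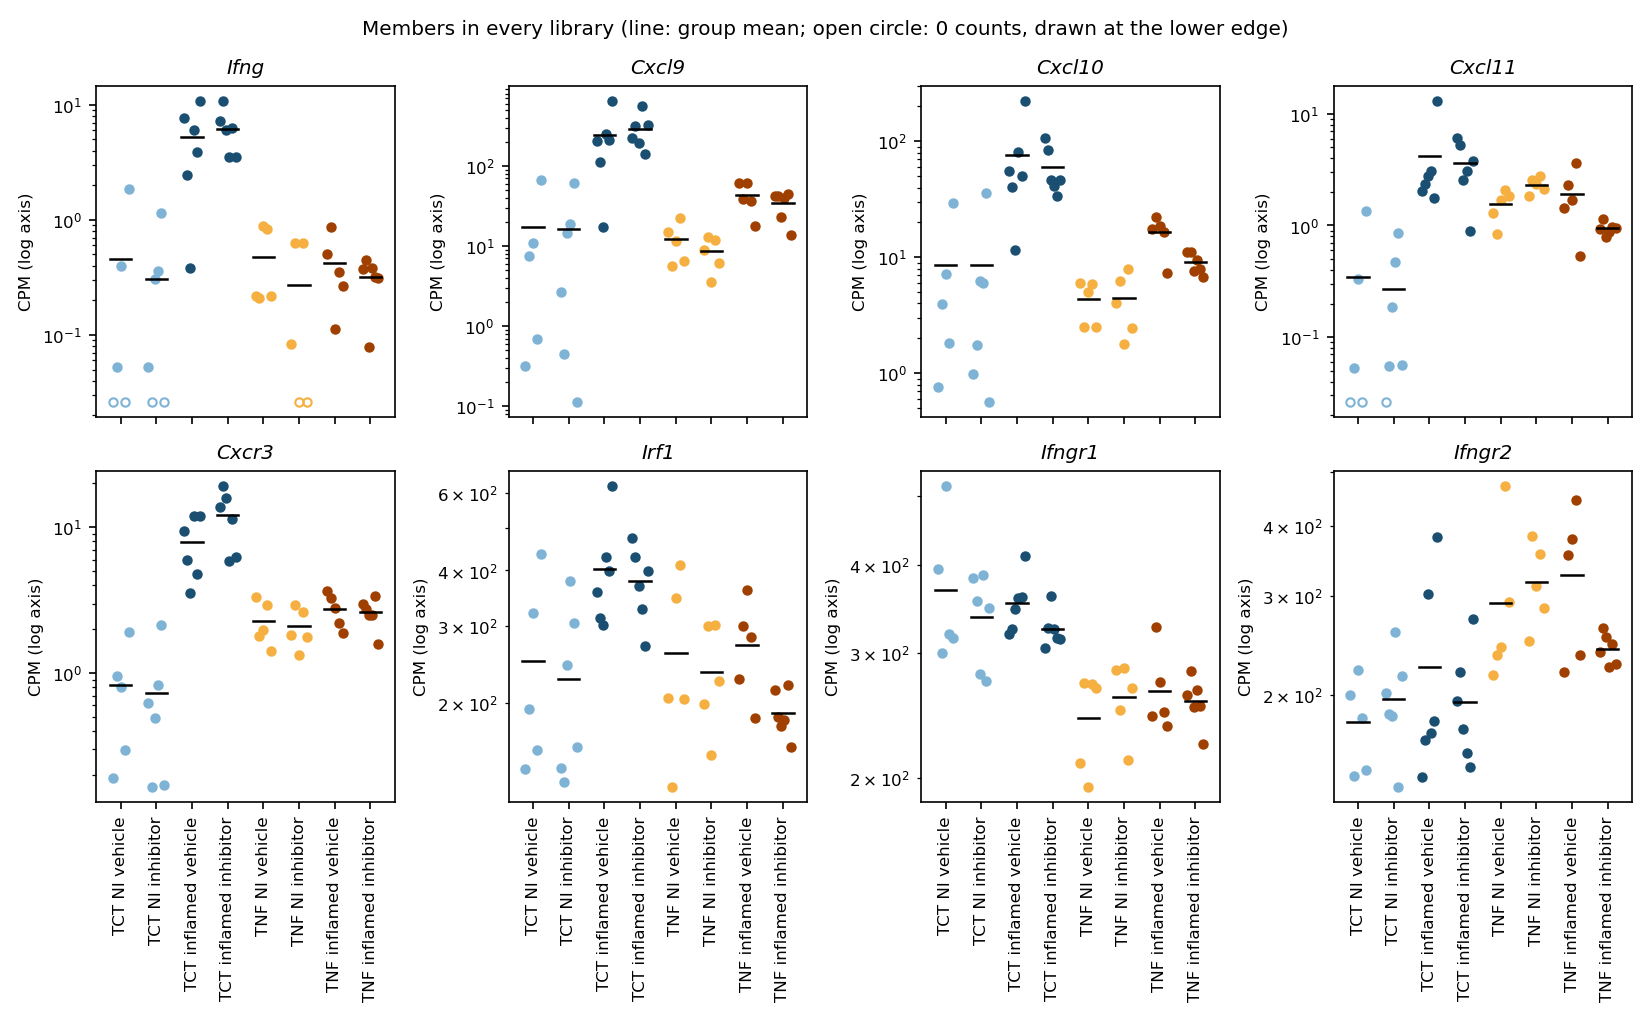
Levels of the 8 genes in each of the 44 libraries, in CPM on a log axis, by group. Lines mark group means and open circles mark libraries with 0 counts. The 6 inflamed vehicle transfer libraries lie between 3.53 and 12.0 CPM for Cxcr3, above all 5 of their controls, while the Tnf ∆ARE/+ and Tnf +/+ libraries overlap.

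The first comparison asked how the axis differed between inflamed and non-inflamed vehicle-treated transfer mice. Ifng, Cxcl11 and Cxcr3 rose by about 10-fold, and Cxcl9 and Cxcl10 had fold changes of the same order without passing the test. Neither receptor chain gene passed it. Calls are an adjusted p under 0.05 from edgeR's quasi-likelihood test with batch as a term, Benjamini-Hochberg adjusted over 15317 genes. In all, 3 of 8 members were called higher, against 7.9% of all genes tested, and the members' median log2 fold change was 3.07 against 0.05 over all genes.

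Ifng, the cytokine at the head of the axis, was at 0, 0.0527, 0.400, 0 and 1.85 CPM in the 5 non-inflamed vehicle libraries (replicates 1, 2, 4, 6 and 7). In the 6 inflamed vehicle libraries its lowest, median and highest values were 0.384, 4.99 and 10.8 CPM. The groups overlap through a high control, replicate 7, and a low inflamed library, replicate 3, the one with small intestinal transcripts. A count of 0 still allows up to 3 counts, which was 0.148 to 0.192 CPM in the transfer libraries at 0, and this covers counting error only. The group means were 5.22 ± 3.76 CPM (SD, n = 6) and 0.461 ± 0.795 CPM (SD, n = 5), and the log2 fold change was 3.32 ± 0.94 (SE, adjusted p = 0.0220). Without the 6 libraries with small intestinal or pancreatic transcripts the adjusted p was 0.0706.

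Cxcr3, the receptor carried by T helper 1 and cytotoxic T cells, was at 0.192, 0.948, 0.799, 0.295 and 1.90 CPM in the non-inflamed vehicle libraries. The inflamed vehicle libraries had a lowest, median and highest value of 3.53, 7.72 and 12.0 CPM, and every one of them was above every control. Such a gap was seen for 3.43% of all genes tested. The log2 fold change was 3.27 ± 0.62 (SE, adjusted p = 0.00321).

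T cell markers moved with both genes. The summed level of 12 T cell markers was 12.4 to 64.7 CPM in non-inflamed and 61.1 to 322 CPM in inflamed vehicle transfer libraries, 10 of the 12 were called higher and no marker was at 0 in every library. The summed level of 8 natural killer cell markers moved too, at 1.60 to 32.6 CPM in non-inflamed and 29.8 to 310.2 CPM in inflamed libraries, with 3 of the 6 tested called higher and none at 0 in every library. Per 100 CPM of T cell markers, Cxcr3 was 2.39 ± 0.93 CPM in non-inflamed and 4.37 ± 0.84 CPM in inflamed vehicle libraries, and Ifng was 0.837 ± 1.23 and 2.43 ± 1.19 CPM (SD, n = 5 and 6). These ratios are a description with no test, and the part of T cell and natural killer cell number in the results was not tested. In bulk tissue, fewer cells of a type and less RNA per cell cannot be told apart.

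The receptor chain genes and Irf1 were abundant in every group. Ifngr1, the ligand-binding chain, was at 369 ± 89.9 CPM in non-inflamed and 354 ± 33.1 CPM in inflamed vehicle libraries (SD, n = 5 and 6), with a log2 fold change of 0.03 (95% interval -0.28 to 0.35, adjusted p = 0.906). Ifngr2, the signal-transducing chain, was at 179 ± 33.8 and 224 ± 96.2 CPM, with a log2 fold change of 0.37 (interval -0.10 to 0.85, adjusted p = 0.271). Both groups overlapped widely for these genes. Irf1, an early interferon gamma target that was already at 142 to 436 CPM in the controls, was at 249 ± 125 and 403 ± 118 CPM, with a log2 fold change of 0.68 ± 0.35 (SE, adjusted p = 0.192).

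Among the ligands, Cxcl9 was at 0.320, 7.48, 10.99, 0.689 and 66.4 CPM in non-inflamed vehicle libraries, and its lowest, median and highest inflamed values were 17.5, 207.8 and 644.5 CPM. Cxcl10 was at 0.767, 3.95, 7.13, 1.82 and 29.2 CPM in non-inflamed vehicle libraries and at 11.5, 52.8 and 222.9 CPM in the inflamed. In both genes control replicate 7 was above the lowest inflamed library, replicate 3. The log2 fold changes were 3.39 ± 1.29 for Cxcl9 (SE, adjusted p = 0.0819) and 2.86 ± 1.05 for Cxcl10 (SE, adjusted p = 0.0718). Leaving out control replicate 7 gave 6.11 for Cxcl9 (adjusted p = 0.0211) and 4.94 for Cxcl10 (adjusted p = 0.0149), and leaving out inflamed replicate 3 also passed both (adjusted p = 0.0466 and 0.0418). Macrophage marker sums were 213 to 532 CPM in the non-inflamed and 380 to 4236 CPM in the inflamed libraries, with 8 of 10 called higher and none at 0 in every library, and their part was not tested.

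Cxcl11 transcript was at 0, 0.0527, 0.333, 0 and 1.34 CPM in the controls and at 1.76, 2.55 and 13.0 CPM (lowest, median and highest) in the inflamed libraries, with no overlap. Its log2 fold change was 3.44 ± 0.93 (SE, adjusted p = 0.0169). Leaving out control replicate 7 took the fold changes of Ifng to 6.43 and of Cxcl11 to 5.93 and passed Irf1 (1.21, adjusted p = 0.0281). Leaving out control replicate 6 lost Ifng (adjusted p = 0.0890) and Cxcl11 (adjusted p = 0.0817), and leaving out inflamed replicate 1 lost Ifng (adjusted p = 0.0520).

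Control replicate 7 had the highest T cell marker sum of its group, 64.65 CPM. Batch was uneven too: 3 of 5 controls and 0 of 6 inflamed vehicle libraries came from the labelled batch 1. Within batch 4, with 5 inflamed and 2 control libraries, the log2 fold changes were 2.77 for Cxcr3, 2.73 for Cxcl11 and 2.31 for Ifng, with adjusted p = 0.558, 0.558 and 0.582, and no gene of the whole table was called. With only the compared groups in the fit, the adjusted p was 0.405 for Cxcr3, 0.464 for Cxcl11 and 0.520 for Ifng.

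Under ATI-450, 5 of 8 members were called higher in inflamed than in non-inflamed transfer mice, against 14% of all genes: Ifng, Cxcl9, Cxcl10, Cxcl11 and Cxcr3. Ifng was at 0, 0.180 and 1.135 CPM (lowest, median and highest) in the 6 non-inflamed and at 3.49, 6.14 and 10.75 CPM in the 6 inflamed ATI-450 libraries. Every inflamed library was above every control, as was also true of Cxcl9, Cxcl11 and Cxcr3 and of 7.39% of all genes.

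The log2 fold changes under ATI-450 were 4.63 ± 0.94 for Ifng (SE, adjusted p = 0.00143), 4.16 ± 0.57 for Cxcr3 (SE, adjusted p = 7.501e-05) and 4.19 ± 0.90 for Cxcl11 (SE, adjusted p = 0.00219). Cxcl9 gave 4.08 ± 1.18 (SE, adjusted p = 0.0172) and Cxcl10 gave 3.08 ± 0.95 (SE, adjusted p = 0.0247). Irf1 gave 0.75 ± 0.31 (SE, adjusted p = 0.0770). All 12 T cell markers were called higher here, with sums of 10.4 to 40.3 CPM in non-inflamed and 182 to 500.0 CPM in inflamed libraries. The Cxcl10 call was lost when any of inflamed replicates 1 or 2 or non-inflamed replicates 1, 2 or 6 was left out (adjusted p = 0.0523 to 0.0625), and the Cxcl9 call without inflamed replicate 2 (adjusted p = 0.0520).

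In Tnf ∆ARE/+ intestine with vehicle only the ligands Cxcl9 and Cxcl10 were called higher, each by about 4-fold, while Ifng, Cxcr3, Irf1 and the receptor chain genes were not called. That was 2 of the 7 members tested, against 8.66% of the 14370 genes tested. Ifng did not pass the filter on low counts in this model and had no place in the fit across all genes.

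Cxcl9 was at 14.7, 5.59, 11.7, 22.6 and 6.44 CPM in the 5 Tnf +/+ and at 61.9, 38.6, 60.3, 36.4 and 17.8 CPM in the 5 Tnf ∆ARE/+ vehicle libraries. Only Tnf ∆ARE/+ replicate 5 reached down into the control range, and it is the single library of that group from batch 3. The log2 fold change was 1.92 ± 0.41 (SE, adjusted p = 0.00243). Cxcl10 was at 6.00, 2.53, 5.05, 5.86 and 2.51 CPM in Tnf +/+ and at 17.7, 22.1, 18.8, 16.7 and 7.38 CPM in Tnf ∆ARE/+ libraries, with no overlap, which 6.01% of all genes shared. Its log2 fold change was 2.00 ± 0.33 (SE, adjusted p = 0.000272). Within batch 2 the values were 2.02 for Cxcl9 (adjusted p = 0.00917) and 2.09 for Cxcl10 (adjusted p = 0.00179), and both genes were called in all 10 alternatives and all 10 fits that left out 1 library.

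Ifng was at 0.217, 0.211, 0.892, 0.837 and 0.218 CPM in Tnf +/+ and at 0.502, 0.872, 0.112, 0.350 and 0.268 CPM in Tnf ∆ARE/+ vehicle libraries, and the groups overlapped entirely. A 2-sided exact permutation test of the CPM gave p = 0.849 (n = 5 and 5). Under ATI-450 the means were 0.269 ± 0.332 CPM in Tnf +/+ (SD, n = 5) and 0.318 ± 0.126 CPM in Tnf ∆ARE/+ (SD, n = 6), with an exact permutation p = 0.693.

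Cxcr3 was at 2.29 ± 0.80 CPM in Tnf +/+ and 2.76 ± 0.73 CPM in Tnf ∆ARE/+ vehicle libraries (SD, n = 5 each), with a log2 fold change of 0.33 (95% interval -0.22 to 0.89, adjusted p = 0.481). T cell marker sums overlapped as well, at 48.3 to 160.1 CPM and 81.6 to 116 CPM, with 0 of 12 markers called in either direction. Mean Cd4 was 10.99 CPM in Tnf +/+ and 20.4 CPM in Tnf ∆ARE/+ libraries, and mean Cd8a was 14.38 and 6.746 CPM. Natural killer cell marker sums had means of 129.7 CPM (27.42 to 330.0) and 34.72 CPM (18.11 to 59.19), the opposite order to the transfer model. Of the 4 tested, 0 were called higher and 1 lower, with a median log2 fold change of 0.07, so the list as a whole did not share the lower sum. Mean Ncr1 was 0.368 CPM in Tnf +/+ and 0.433 CPM in Tnf ∆ARE/+ libraries, and mean Klrb1c was 0.979 and 1.93 CPM, with overlapping ranges. The part of T cell and natural killer cell number was not tested. Irf1 was at 259 ± 116 and 271 ± 67.7 CPM (adjusted p = 0.831), Ifngr1 at 243 ± 37.9 and 266 ± 36.4 CPM (adjusted p = 0.515) and Ifngr2 at 292 ± 104 and 327 ± 96.8 CPM (adjusted p = 0.614). The summed level of macrophage markers, from a cell type that secretes CXCL9 and CXCL10, moved with the ligands here as in the transfer model. It was 320 to 570 CPM in Tnf +/+ and 1900 to 4317 CPM in Tnf ∆ARE/+ vehicle libraries. Of the 10 markers, 8 were called higher and 1 lower, and none was at 0 in every library. Dendritic cell marker sums were 17.7 to 41.3 CPM and 68.4 to 136 CPM in the same groups, with 3 of 6 called higher and 0 lower. The part of these cells in the result was not tested.

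Under ATI-450 the Tnf ∆ARE contrast again called Cxcl9 and Cxcl10 and no other member, 2 of 7 against 7.91% of all genes. The log2 fold changes were 2.73 ± 0.57 for Cxcl9 (SE, adjusted p = 0.00289) and 1.70 ± 0.46 for Cxcl10 (SE, adjusted p = 0.0183). Cxcl9 was higher in every inflamed library, as were 12.6% of all genes, and the Cxcl10 call was lost without inflamed replicate 1 (adjusted p = 0.0813), the single batch 2 library of its group. Cxcl11 was at 1.82 to 2.79 CPM in Tnf +/+ and 0.786 to 1.15 CPM in Tnf ∆ARE/+ libraries, lower in every library as 9.97% of all genes were. It was not called with the batch term (-0.67 ± 0.47, adjusted p = 0.445) but was without it (-1.29, adjusted p = 0.00456). Since 5 of the 6 inflamed and 0 of the 5 non-inflamed ATI-450 libraries came from batch 3, batch and inflammation were nearly the same split in these 2 groups, and the batches are otherwise linked by the vehicle Tnf ∆ARE/+ group, with 4 libraries in batch 2 and 1 in batch 3.

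**Figure D2:**
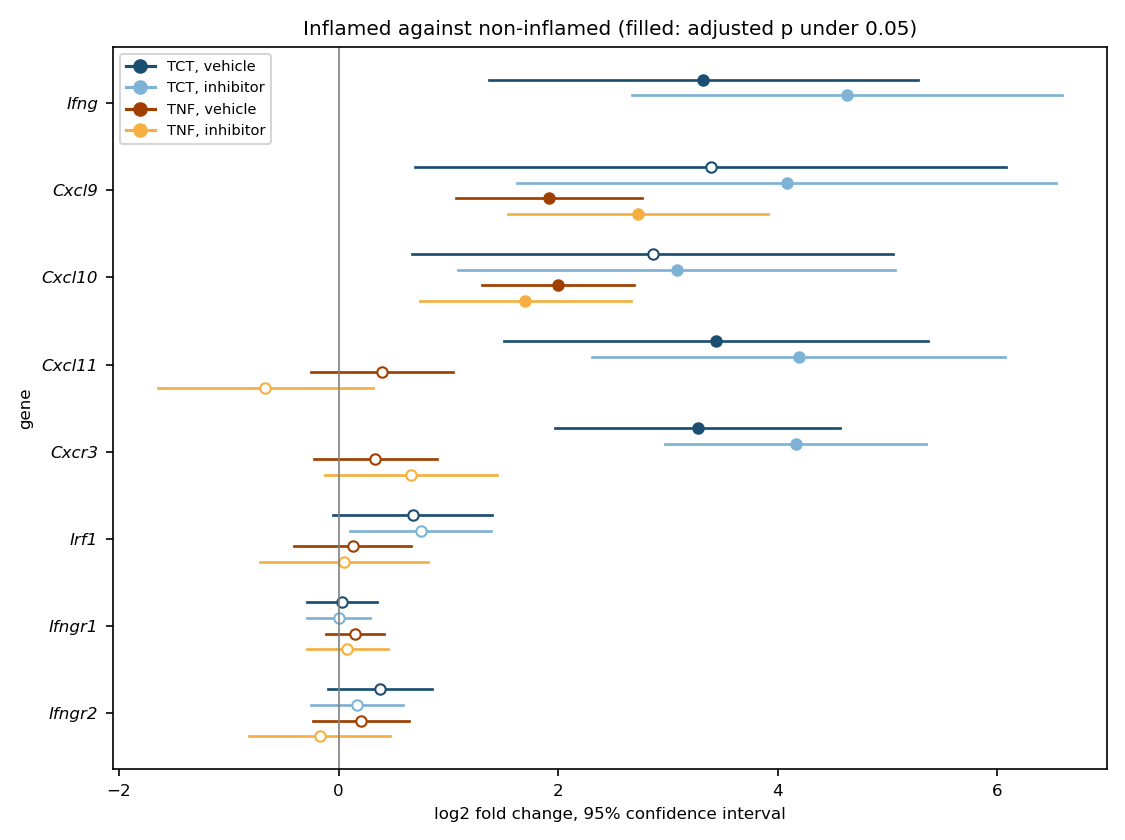
Log2 fold change of each gene, inflamed over non-inflamed, with 95% intervals, for both models under vehicle and ATI-450. Filled points passed an adjusted p of 0.05, and Ifng is absent for the Tnf ∆ARE model because it failed the filter on low counts. Cxcr3 lies at 3.27 in the transfer model and 0.33 in the Tnf ∆ARE model under vehicle.

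The difference between the models was tested directly, in 1 fit of all 44 libraries, as the vehicle inflammation effect of the transfer model minus that of the Tnf ∆ARE model. Cxcr3 alone was called, 1 of 8 members against 3.37% of genes higher, with a difference of 2.93 ± 0.67 on the log2 scale (SE, adjusted p = 0.00721). It was called in all 21 fits that left out 1 library, with adjusted p = 0.000287 to 0.0322, and without the 6 libraries with small intestinal or pancreatic transcripts (adjusted p = 0.0135), but not with only the compared groups in the fit (2.39, adjusted p = 0.389). Of the 12 T cell markers, 7 were called in the same direction, and the part of T cell number was not tested.

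The differences for Cxcl11 (3.03 ± 0.98, adjusted p = 0.0613) and Ifng (3.36 ± 1.27, adjusted p = 0.116) were as large but did not pass. Both passed without control replicate 7, with 5.49 for Cxcl11 (adjusted p = 0.00288) and 6.43 for Ifng (adjusted p = 0.00254). Cxcl11 also passed without transfer inflamed replicates 2, 3 or 5 or Tnf ∆ARE/+ replicate 4 (adjusted p = 0.0402 to 0.0485). For Cxcl9 the difference was 1.46 (95% interval -1.16 to 4.08, adjusted p = 0.589) and for Cxcl10 it was 0.84 (-1.35 to 3.04, adjusted p = 0.737), intervals too wide to show that the models act alike. Gut region, recipient genotype and model are the same split and cannot be told apart.

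Per kb of exon, which allows levels to be compared between genes, inflamed vehicle transfer libraries held a mean of 79.5 CPM per kb of Cxcl9, 34.1 of Cxcl10, 4.59 of Cxcr3, 4.03 of Ifng and 1.10 of Cxcl11, beside 124 of Ifngr1, 101 of Irf1 and 59.6 of Ifngr2. In Tnf ∆ARE/+ vehicle libraries Cxcl9 was at 14.3 and Cxcl10 at 7.34 CPM per kb. In the transfer libraries Cxcl9 and Cxcl10 were thus above Ifng and Cxcl11 below it, and in the Tnf ∆ARE/+ libraries Ifngr1, Ifngr2 and Irf1, at 93.4, 86.9 and 68.1 CPM per kb, were above both ligands.

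When the 8 group means of each gene were put in order, neighbouring groups overlapped in every case but 1. Cxcl9 ran from 290.6 ± 147 CPM (transfer, inflamed, ATI-450) and 239.8 ± 215 CPM (transfer, inflamed, vehicle) through 43.0 ± 18.4 and 34.3 ± 12.9 CPM (Tnf ∆ARE/+, vehicle and ATI-450) to 8.70 ± 3.95 CPM in Tnf +/+ with ATI-450. The exception was Cxcl10, where the 6 inflamed ATI-450 transfer libraries, at 59.7 ± 28.7 CPM, lay above the 5 Tnf ∆ARE/+ vehicle libraries, at 16.5 ± 5.51 CPM. These levels come from tables scaled within each model and are a description.

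The question the study's treatment arm addresses is what ATI-450 changed, and no member tested passed in any of the 7 comparisons that involve the inhibitor effect. Ifng missed the filter on low counts in the Tnf ∆ARE model. So 7 members were tested in the comparisons within that model and 8 in the others. In both models, in inflamed and non-inflamed mice, in the difference of these effects and between the models, 0 members were called and 0 had an unadjusted p under 0.05 with edgeR, and DESeq2 and limma-voom also called 0, as did limma on the deposited normalized values, which was not run between the models. The background was as low: 0.00653% of all genes were called in inflamed transfer mice, 0.00642% in the difference between models and 0 in the other 5.

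In inflamed transfer mice Ifng was at 5.22 ± 3.76 CPM with vehicle and 6.20 ± 2.69 CPM with ATI-450 (SD, n = 6 each), a log2 fold change of 0.28 (95% interval -1.58 to 2.15). Cxcl9 gave 0.76 (-1.99 to 3.51), Cxcl10 gave 0.08 (-2.30 to 2.46) and Cxcr3 gave 0.34 (-0.91 to 1.60), and their groups overlapped. The intervals of Ifng, Cxcl9 and Cxcl10 span a fall and a rise of several fold, so effects of that size remain possible. That of Cxcr3 allows a smaller fall. In inflamed Tnf ∆ARE/+ mice Cxcl10 was at 16.5 ± 5.51 CPM with vehicle and 9.07 ± 1.87 CPM with ATI-450 (SD, n = 5 and 6), with a batch-adjusted log2 fold change of -0.29 (-1.16 to 0.59). The batch term matters there because 4 of 5 vehicle libraries came from batch 2 and 5 of 6 ATI-450 libraries from batch 3. Cxcl9 gave 0.31 (-0.80 to 1.42) and Cxcl11 gave -0.48 (-1.41 to 0.45). Ifng, whose response to ATI-450 was not tested in this model, was at 0.421 ± 0.289 CPM with vehicle and 0.318 ± 0.126 CPM with ATI-450 in Tnf ∆ARE/+ mice (SD, n = 5 and 6). In Tnf +/+ mice it was at 0.475 ± 0.356 and 0.269 ± 0.332 CPM (SD, n = 5 each). The receptor chain genes had the narrowest intervals, as in Ifngr1 in inflamed transfer mice at -0.16 (-0.47 to 0.15).

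**Figure D3:**
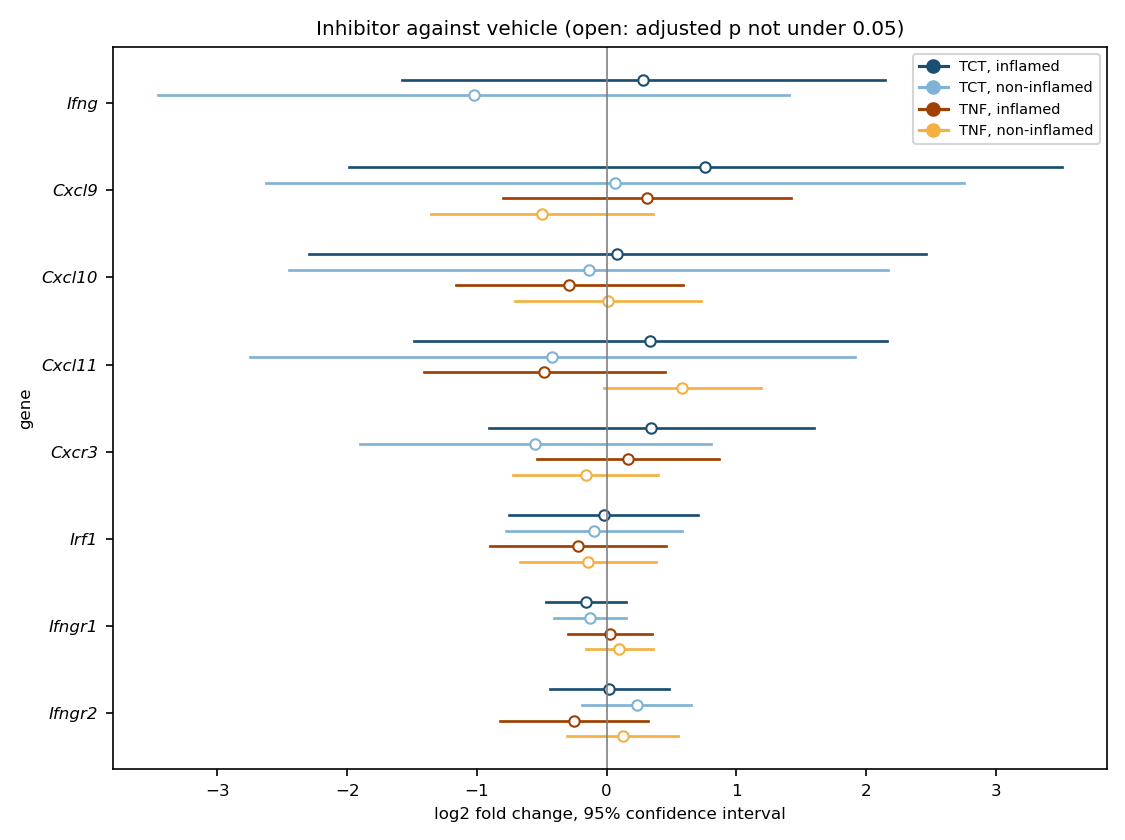
Log2 fold change of each gene, ATI-450 over vehicle, with 95% intervals, in inflamed and non-inflamed mice of both models. All points are open because none passed an adjusted p of 0.05, and the Cxcl9 interval in inflamed transfer mice runs from -1.99 to 3.51. Ifng is absent for the Tnf ∆ARE model because it failed the filter on low counts.

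Genes around the axis were described from lists chosen with earlier results of these data known, and the first value in each bracket is a log2 fold change. The counts of genes called higher stand beside 7.9% of all genes in vehicle transfer, 14% in ATI-450 transfer, 8.66% in vehicle Tnf ∆ARE/+ and 7.91% in ATI-450 Tnf ∆ARE/+ mice. For the difference between the models the share was 3.37%. Of 11 tested inducers, the cytokines, receptors and transcription factors that drive Ifng, 9 were called higher and 0 lower in inflamed vehicle transfer mice, with a list median log2 fold change of 2.59. Il12rb1, a chain of the IL-12 receptor, was at 0.194 ± 0.334 CPM in non-inflamed and 6.38 ± 4.90 CPM in inflamed libraries (4.60 ± 1.03, adjusted p = 0.00596). Il27, a cytokine subunit gene, gave 4.49 (adjusted p = 0.00253) and Il18rap, the IL-18 receptor accessory chain, gave 3.22 (adjusted p = 0.00446). Il27 was low in both groups, at 0.0336 ± 0.0311 CPM in non-inflamed and 0.672 ± 0.480 CPM in inflamed libraries, so its fold change rests on few counts. In Tnf ∆ARE/+ mice 2 of 8 tested inducers were called higher and 1 lower, with a median of 0.55: Il18rap (1.85, adjusted p = 0.00294) and Runx3, a cytotoxic lineage factor (1.18, adjusted p = 0.0439), rose, and Il18, made by epithelium, had a log2 fold change of -1.46 (adjusted p = 0.0233), with 7.27% of all genes called lower. Between the models 2 of 10 inducers differed, Il12rb2 (3.02, adjusted p = 0.00834) and Il18r1 (2.59, adjusted p = 0.00926).

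Of 9 genes of receptor signalling, 1 was called higher in vehicle transfer mice, the transcription factor gene Irf8 (0.92 ± 0.28, adjusted p = 0.0350), and 0 in vehicle Tnf ∆ARE/+ mice, the first near the share of all genes. Under ATI-450 the counts were 3 and 2 of 9, among them Batf2 in transfer mice (0.89, adjusted p = 0.0388) and Nlrc5, the activator of MHC class I genes, in Tnf ∆ARE/+ mice (2.31, adjusted p = 0.0215). Of 6 genes listed as brakes on interferon signalling, not all of them particular to interferon gamma, 4 were called higher in vehicle transfer mice. They included Socs1, the JAK inhibitor (2.56, adjusted p = 0.0451), Usp18 (2.29, adjusted p = 0.0213) and the phosphatase gene Ptpn6 (1.04, adjusted p = 0.00193). In vehicle Tnf ∆ARE/+ mice 1 of 6 was called higher, Ptpn6 (0.81, adjusted p = 0.00636). Usp18 differed between the models (2.82, adjusted p = 0.0462).

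Of 27 tested target genes, 6 were called higher in vehicle transfer mice with a median of 1.45 and 8 in vehicle Tnf ∆ARE/+ mice with a median of 0.46, and 0 were called lower in either. In transfer mice Cd40, a costimulatory receptor (2.86, adjusted p = 0.00955), and Icam1, an adhesion molecule (2.36, adjusted p = 0.0166), rose. In Tnf ∆ARE/+ mice the called genes with the largest changes were Icam1 (2.40, adjusted p = 0.000139), the complement C1 inhibitor gene Serping1 (2.10, adjusted p = 2.78e-05) and Vcam1 (1.85, adjusted p = 0.000472). Icam1 and Vcam1 are also known targets of TNF and NF-kappaB. Between the models 0 of 27 targets were called. Under ATI-450 the counts were 13 of 27 in transfer mice, led by Ido1 (3.83 ± 1.06, adjusted p = 0.0138) and Cd40, and 10 of 27 in Tnf ∆ARE/+ mice, where Gbp4 was listed at 0 in all 5 Tnf +/+ libraries.

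The genes that handle CXCR3 ligands after secretion went both ways. Dpp4, the membrane peptidase that clips CXCL9, CXCL10 and CXCL11 at the amino end, was at 1098 ± 240.7 CPM in Tnf +/+ and 351.8 ± 95.9 CPM in Tnf ∆ARE/+ vehicle libraries (SD, n = 5 each) and was called lower, with a log2 fold change of -1.75 (adjusted p = 6.245e-06). It is also an enterocyte brush border enzyme, and the small intestinal enterocyte marker sum was 13700 to 34830 CPM and 8126 to 16820 CPM in the same groups, whose part was not tested. Ackr1, the atypical receptor that binds chemokines on venules, rose in both models, by a log2 fold change of 1.00 in transfer (adjusted p = 0.0385) and 1.38 in Tnf ∆ARE/+ mice (adjusted p = 0.00502). Between the models 1 of 4 genes was called, Dpp4 (3.57, adjusted p = 0.0441), against 3.37% of all genes called higher. Dpp4 was not called in vehicle transfer mice alone. The transfer group included inflamed vehicle replicate 3, with its enterocyte marker sum of 38280 CPM. Of the 8 enterocyte markers, 7 were called in the same direction as Dpp4, and the part of that library was not tested.

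Across libraries of 1 model and inflammation state, Ifng was set against the other inducible members on log2 CPM, 20 relations in all, each with a permutation p adjusted over them. In the 11 non-inflamed transfer libraries all 5 genes tracked Ifng, from r = 0.88 for Cxcr3 (rho = 0.88, adjusted p = 0.0015) to r = 0.97 for Cxcl11 (rho = 0.84, adjusted p = 0.000333), and Cxcl9 gave r = 0.92 (rho = 0.95, adjusted p = 0.000333). After the 2 libraries farthest from the median of Ifng were left out, r was 0.71 to 0.93, and centred within batch it was 0.85 to 0.96. Replicate 7 with vehicle and replicate 5 with ATI-450 had the highest Ifng, Cxcl9 and Cxcl10 of their groups. In these libraries Ifng rested on 0 to 36 counts and Cxcl11 on 0 to 26. Their lowest log2 values therefore depend on the constant of 2 counts added before the logarithm.

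Of the 12 inflamed transfer libraries, Cxcl10 gave r = 0.85 (rho = 0.80, adjusted p = 0.00203; 0.68 without 2 libraries) and Cxcr3 gave r = 0.83 (rho = 0.73, adjusted p = 0.000600; 0.81). Cxcl9 gave r = 0.80 (rho = 0.43, adjusted p = 0.0248) but 0.05 without 2 libraries, so that relation rested on those libraries. For each gene, 1 of the 2 was vehicle replicate 3, the library with small intestinal transcripts. Its Ifng was the lowest of the 12, at 0.384 CPM. Irf1 and Cxcl11 did not pass. In the 10 Tnf +/+ libraries Cxcl9 (r = 0.78, adjusted p = 0.0228), Cxcl10 (r = 0.78, adjusted p = 0.0238) and Irf1 (r = 0.77, adjusted p = 0.0238) passed, with adjusted rank p of 0.0528, 0.0644 and 0.0227. None of 5 passed in the 11 Tnf ∆ARE/+ libraries, where r was 0.09 to 0.41. Ifng rested on 0 to 9 counts a library in the Tnf +/+ and Tnf ∆ARE/+ groups, which limits these relations. The libraries share their T cell content and depth as well as these transcripts.

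**Figure D4:**
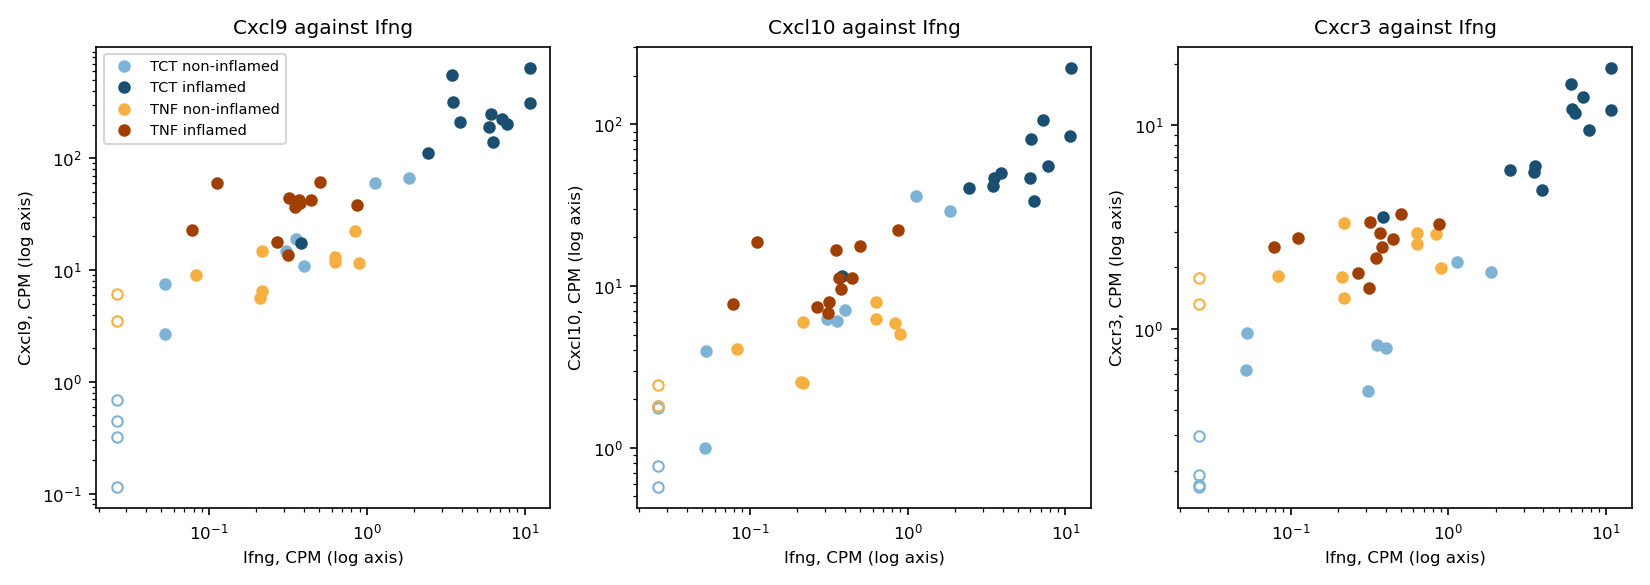
Cxcl9, Cxcl10 and Cxcr3 against Ifng in each library, in CPM on log axes, by model and inflammation state. Open circles at the left edge mark libraries with 0 Ifng counts. The inflamed Tnf ∆ARE/+ libraries spread across Cxcl10 values of 6.78 to 22.1 CPM at Ifng levels under 1 CPM.

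The genes most like Ifng in log2 CPM over all 44 libraries, by mean absolute difference after centring within each model, were Sit1 (0.473), Cd2 (0.484), Cxcr6 (0.484), Coro1a (0.485) and Cd247 (0.491), where the median over 13053 genes was 1.43. Those most like Cxcl9 were Tgtp1 (0.583), Iigp1 (0.636), Serpina3f (0.671), Serpina3g (0.674) and H2-Q7 (0.719), against a median of 2.08. Tgtp1, the Serpina3 genes and H2-Q7 have near-identical copies whose reads the counting could have split, so their values are uncertain.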

How the data were processed

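RNA from 44 intestine libraries was sequenced after poly-A selection with a directional kit, per the labels' protocols. The authors deposited, for each model, a table of estimated counts per gene and a table of normalized values. Per the submitters' processing notes, Salmon 0.14.1 and DESeq2 were used and the builds were mm10 and GRCm38; no role or further setting is given in the sources used here. The deposited normalized signal was taken as the authors' count scaling and used only as an alternative, on log2(value + 1). The estimated counts the authors deposited were rounded to whole numbers.

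CPM and log2 fold changes were computed from the deposited estimated counts with edgeR 4.0.16 (R 4.3.3): filterByExpr removed low genes, TMM factors rescaled the totals, and the quasi-likelihood test, with terms for group and batch, was run for each model (15317 and 14370 genes) and jointly (15565 genes), adjusting p-values by Benjamini-Hochberg across every gene in the fit. DESeq2 1.42.0 and limma 3.58.1 gave alternatives. Library totals were 5800923 to 22347011 counts, the floor of 3 counts covers counting error only, and the 95% intervals include the spread between libraries. No pair of libraries held identical values. Of 156 list entries, 154 matched the tables (Gbp5 and Gbp6 did not).

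The members and lists were chosen with earlier results of these data known. All 8 members were named in every comparison; from each list, the 3 called genes with the largest fold changes were named in vehicle inflammation comparisons and up to 2 in others; marker genes were given as sums and counts; and the 5 genes nearest Ifng and Cxcl9 were named. One gene that this rule names and one promoter motif are not reported here. Sequences came from RefSeq (GRCm38.p6) and GENCODE M21 (GRCm38). The fit was tested on simulated data. Alternatives listed in the closing section included other normalizations, no filter, no batch term, a replicate block, a single batch, only the compared groups and leaving out each library; 3 further ones (the older quasi-likelihood method, leaving out 6 transfer libraries, and the exact test of Ifng) were added after seeing the data.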

Additional observations from a re-analysis of the deposited data

Results flagged for a closer look

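In 13 of 64 groups tested, 1 library lay far from the others of its group by a gap test on its CPM, where chance flags about 1 in 20 groups. Non-inflamed vehicle transfer replicate 7 was highest for Ifng (1.852 CPM), Cxcl9 (66.35 CPM), Cxcl10 (29.21 CPM) and Cxcl11 (1.337 CPM). Its T cell marker sum, 64.65 CPM, was also the highest of its group. Non-inflamed ATI-450 transfer replicate 5 was highest for Ifng (1.135 CPM), Cxcl9 (60.44 CPM), Cxcl10 (36.04 CPM) and Cxcr3 (2.128 CPM), with a T cell marker sum of 40.29 CPM, again the highest of its group. Inflamed vehicle transfer replicate 6 was highest for Cxcl9 (644.5 CPM), Cxcl10 (222.9 CPM) and Cxcl11 (13.03 CPM). Inflamed ATI-450 transfer replicate 3 was highest for Ifngr1 (360.9 CPM), and Tnf ∆ARE/+ ATI-450 replicate 3 was lowest for Ifng (0.07857 CPM). The difference between the models in the vehicle inflammation effect passed the test for Cxcr3, at 2.931 on the log2 scale (adjusted p = 0.00721, edgeR).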

How the results depend on the processing

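Of 2244 member values under alternatives, 0 called values reversed, 40 passed the test where the reported fit did not and 23 failed where it did. In vehicle transfer mice 3 members were called, against 5 without a batch term, 5 with DESeq2, 6 with limma-voom, 5 on the deposited normalized signal, 0 with only the compared groups fitted, 0 within a single batch, and 1 to 6 when 1 library was left out. In ATI-450 transfer mice 5 were called, and 3 to 6 when 1 library was left out. In Tnf ∆ARE mice 2 were called with vehicle under every alternative, and under ATI-450 2 were called, against 1 with only the compared groups, 0 within a single batch (1 inflamed library), and 1 to 2 when 1 library was left out. The difference between models called 1, against 2 without a batch term, 5 with limma-voom, 0 with only the compared groups, and 1 to 3 when 1 library was left out. With a replicate block the counts were 7 in vehicle transfer mice, 1 in ATI-450 Tnf ∆ARE mice and 6 in the difference between models. The labels do not say whether equal replicate numbers mark paired libraries. No comparison had every same-numbered pair over 0.1 in the correlation of deviations. The highest median was 0.323, for ATI-450 against vehicle in non-inflamed transfer mice, where 3 of 4 pairs were over 0.1. So few pairs cannot show that the libraries were unpaired. All inhibitor comparisons called 0 members under every alternative. The share of all genes called ranged from 0 to 40% in vehicle transfer mice (14.2% as reported) and from 9.38 to 18.9% in vehicle Tnf ∆ARE mice (15.9%). Of 416 levels under another scaling, 2 moved by more than 1 SD. The causes of these changes were not tested. Depth: the Ifng values in the Tnf ∆ARE model rest on 0 to 9 counts a library.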
